A study of Sus scrofa with 6 samples.

Results

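The miRNAs described here are those of the miR-142, miR-146, miR-150, miR-155 and miR-223 families, which are known from white blood cells, in the longissimus dorsi muscle of the pig. They were taken by name: every listed miRNA whose first name begins with ssc-miR-142, ssc-miR-146, ssc-miR-150, ssc-miR-155 or ssc-miR-223, all arms included. The rule found 10 of 1143 listed miRNAs, of which 8 belong to the families and 2, the arms of miR-1468, match miR-146 by their digits alone. No listed miRNA carried a known porcine miR-223 name, so that family is represented below by PN-32, a conserved hairpin that the study matched to mir-223 of other mammals and that is kept apart from the counts of members. Of the 8 family members, 6 entered the tests because their mean reached 10 normalized reads in MS or LW, and in fact each of these 6 reached it in both breeds.

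Small RNA was sequenced from 3 Meishan (MS) and 3 Large White (LW) pigs, breeds that the labels call obese and lean. Per the paper the animals were female fetuses at 35 days post-conception (dpc), each from a different sow, whereas the labels describe unrelated adult females of 2 years. Samples were grouped by breed, on which both sources give the same answer, so that each library stood for 1 animal. Breed was not the only difference on record. Per the paper the Large White gilts were heavier than the Meishan gilts, and myofibers of MS fetuses were denser and thicker. The part of these differences in the miRNA values was not tested. The values are normalized reads, which are the reads of the most abundant sequence of a miRNA scaled within its library by the authors.

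The normalized reads of all listed miRNAs summed to between 1757880 and 2362080 in MS libraries and to between 2541220 and 2914030 in LW libraries. Low values were multiples of a step that is worth 1 read, which gave back between 1038986 and 3282583 listed reads in MS libraries and between 2028446 and 3419270 in LW libraries. MS replicate 3 was the shallowest library, and 1 read there was worth 1.69 normalized reads. A miRNA is called where the adjusted p of limma with Benjamini-Hochberg adjustment over all 548 miRNAs tested is under 0.05, and log2 fold changes are MS over LW. They were computed on log2(normalized reads + 1), so the change of low miRNAs is understated.

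A miRNA is cut from a hairpin RNA, whose 5p and 3p arms can each yield a mature strand, and the bases near its 5′ end, the seed, pair with target mRNAs. MiR-142 is made almost exclusively in blood-forming cells and their progeny, and miR-223 belongs to granulocytes and monocytes. MiR-150 is abundant in mature lymphocytes, whereas miR-155 and miR-146 are induced in activated immune cells and also occur in other cell types. In the immune response miR-146a dampens Toll-like receptor signalling through TRAF6 and IRAK1, and miR-155 is encoded by the BIC host gene and promotes B cell and T cell responses. In whole muscle, fewer cells of a type and less RNA per cell cannot be told apart.

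The mature sequences that the values belong to are shown so that arms and seeds can be compared. They are printed as the deposited table lists them, 5′ to 3′ and in DNA letters, with the seed (bases 2 to 8) in capitals.
miR-142-5p: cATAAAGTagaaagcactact
miR-142-3p: tGTAGTGTttcctactttatgga
miR-155-5p: tTAATGCTaattgtgataggggtt
miR-146a-5p: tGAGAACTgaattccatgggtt
miR-146b-5p: tGAGAACTgaattccataggctgt
miR-150-2-5p: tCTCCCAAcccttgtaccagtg
PN-32-3p: tGTCAGTTtgtcaaatacccca

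MiR-146a-5p and miR-146b-5p have the same seed and differ within their shared length at G18A and T21C (miR-146a first, positions counted from the 5′ end), after which miR-146b-5p runs on for a total of 24 nt against 22 nt. The seed GAGAACT occurred in 4 listed miRNAs, the others being the candidates PC-16-5p and PC-392-3p. Here PC marks a candidate and PN a conserved miRNA, as in the deposited table, whereas the paper's methods give these marks the other way round. The seeds of both miR-142 arms, of miR-155-5p and of PN-32-3p occurred in no other listed miRNA. GC content was 33.3% for miR-142-5p and miR-155-5p, 34.8% for miR-142-3p, 40.9% for miR-146a-5p and PN-32-3p, 41.7% for miR-146b-5p and 54.5% for miR-150-2-5p. This property matters below, because the breed difference of all miRNAs moved with it.

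Both miR-142 arms come from 1 hairpin, which is shown in the 80 nt of the study's hairpin list with the arms in capitals.
miR-142 hairpin: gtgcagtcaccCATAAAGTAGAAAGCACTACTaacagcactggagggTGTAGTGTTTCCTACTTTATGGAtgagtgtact
The 5p arm occupied bases 12 to 32 and the 3p arm bases 48 to 70 of this sequence, with 15 bases between them. On Sscrofa10.2 the hairpin was placed on the plus strand of chromosome 12 at 36203904 to 36204009, a span of 106 bases that is longer than the sequence listed. In the RefSeq annotation of Sscrofa11.1, the gene MIR142 lies between TSPOAP1 and SUPT4H1. The other hairpins were on other chromosomes of Sscrofa10.2: miR-155 on chromosome 13 (minus strand, 199063324 to 199063434), miR-146a on chromosome 16 (minus strand, 68394511 to 68394607), miR-146b on chromosome 14 (plus strand, 123301746 to 123301850) and miR-150-2 on chromosome 6 (minus strand, 50309879 to 50309955). PN-32 lay on the plus strand of chromosome X at 58752416 to 58752517. These 6 hairpins thus lay on 6 different chromosomes, and the members that share one are the 5p and 3p arms of miR-142, of miR-155 and of miR-146b.

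Under the authors' scaling, 3 of the 6 members tested were higher in MS: miR-142-5p, miR-142-3p and miR-146b-5p. Over all 548 miRNAs tested, 34.1% were called higher in MS and 28.1% lower. None of the 6 was called lower by limma, and none was lower at an unadjusted p under 0.05 (0 by limma, 0 by edgeR and 0 by DESeq2 on the recovered reads). For 4 of the 6, miR-155-5p being the fourth, every MS library lay above every LW library. Over all miRNAs tested, 36.7% had such a split with MS above and 31% with MS below. The median log2 fold change was 0.90 over the 6 members and 0.11 over all miRNAs tested. With 6 miRNAs the counts are small, and the size of the change differed widely from member to member.

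**Figure D1:**
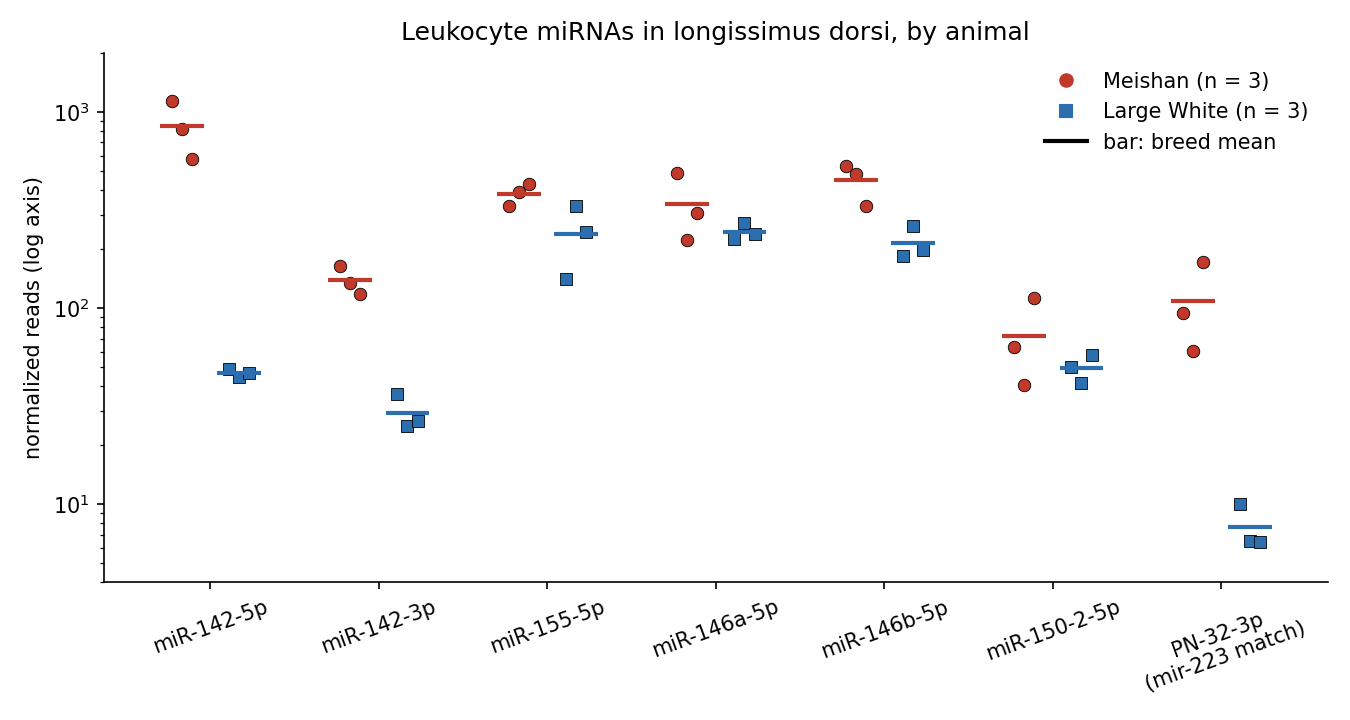
Normalized reads (log axis) of the 6 members tested and of PN-32-3p in each of 3 Meishan (circles) and 3 Large White (squares) animals, with bars at the breed means. The miR-142 arms, miR-146b-5p and PN-32-3p were separated by breed, miR-155-5p only just (333.2 in the lowest MS animal against 332.7 in the highest LW animal), and miR-146a-5p and miR-150-2-5p overlapped.

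The largest difference among the members was that of ssc-miR-142-5p, one of the strands that mark blood-forming cells. It had 1138, 820 and 575 normalized reads in MS replicates 1, 2 and 3, against 48.9, 44.7 and 46.6 normalized reads in LW replicates 1, 2 and 3. The lowest MS animal was thus far above the highest LW animal, and the LW values were close to each other. The means were 844 ± 282 normalized reads in MS and 46.7 ± 2.06 in LW (SD, n = 3 each), a ratio of 18.1. The log2 fold change was 4.09 ± 0.33 (SE) with a 95% interval of 3.38 to 4.81, and the adjusted p of limma was 1.4e-06. By log2 fold change it stood 18th of the 548 miRNAs tested, counted from the highest in MS. A log2 fold change of at least 4 was reached by 3.28% of all miRNAs tested.

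Among all listed miRNAs, miR-142-5p ranked 145th, 158th and 177th by level in the MS libraries and 328th, 334th and 341st in the LW libraries. The values rested on 1581, 893 and 340 reads in MS and on 39, 55 and 51 reads in LW. The exact Poisson 95% interval of the LW counts ran from 27.7 at the lowest to 71.6 reads at the highest, and that of the shallowest MS library was 304.8 to 378.1 reads. Such intervals cover counting error only, since PCR reads without molecular identifiers are not independent molecules. The coefficient of variation was 33.4% in MS and 4.42% in LW, beside medians of 30.3% in MS and 24.1% in LW over all miRNAs tested. The spread among MS animals was therefore near that of a typical miRNA here. The LW values lay closer together than the counting error of 39 to 55 reads, so their spread is not read as likeness of the animals.

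MiR-142-3p, the other arm of the hairpin, had 163, 134 and 118 normalized reads in MS replicates 1 to 3, against 36.3, 25.2 and 26.5 in LW replicates 1 to 3. No libraries overlapped between breeds. The means were 139 ± 22.8 in MS and 29.3 ± 6.08 in LW (SD, n = 3 each), a ratio of 4.72. The log2 fold change was 2.21 ± 0.34 (SE, adjusted p = 0.000149, limma), the 95th highest of the 548. The 3p arm therefore moved the same way as the 5p arm, by a smaller amount.

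Both strands are cut from the same hairpin, and their ratio within a library does not depend on how libraries were scaled. The 5p:3p ratio was 6.96, 6.12 and 4.86 in MS libraries and 1.34, 1.77 and 1.76 in LW libraries. The 5p strand was the more abundant in every library, and its excess was larger in every MS animal than in any LW animal. The mean ratio was 5.98 ± 1.06 in MS and 1.63 ± 0.24 in LW (SD, n = 3 each), a difference of 1.87 on the log2 scale. The two-sided exact permutation test gave p = 0.10, adjusted p = 0.10 over the 2 ratios tested, which is the smallest that 3 animals against 3 allow.

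As a share of the miR-142 reads, the 5p arm took 87.4% (95% Clopper-Pearson interval 85.8 to 88.9), 85.9% (83.7 to 88.0) and 82.9% (78.9 to 86.4) in MS replicates 1 to 3. In LW replicates 1 to 3 it took 57.4% (44.8 to 69.3), 64.0% (52.9 to 74.0) and 63.8% (52.2 to 74.2). The intervals of MS libraries did not overlap those of LW libraries, which were wide because 68 to 86 reads stood behind each. They cover counting error within a library only and not the spread among animals. A shift of this kind was common in these libraries. Of 173 hairpins with both arms tested, 69.4% had ratios that did not overlap between breeds, the median size of the difference was 1.47 on the log2 scale, and 70 hairpins had a larger one than miR-142. Some of these hairpins had an arm tested through its MS level alone, such as miR-206-5p, whose LW mean was 2.36 normalized reads. Such a filter favoured large differences, so these background values may be too high beside miR-142, whose arms passed in both breeds.

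**Figure D2:**
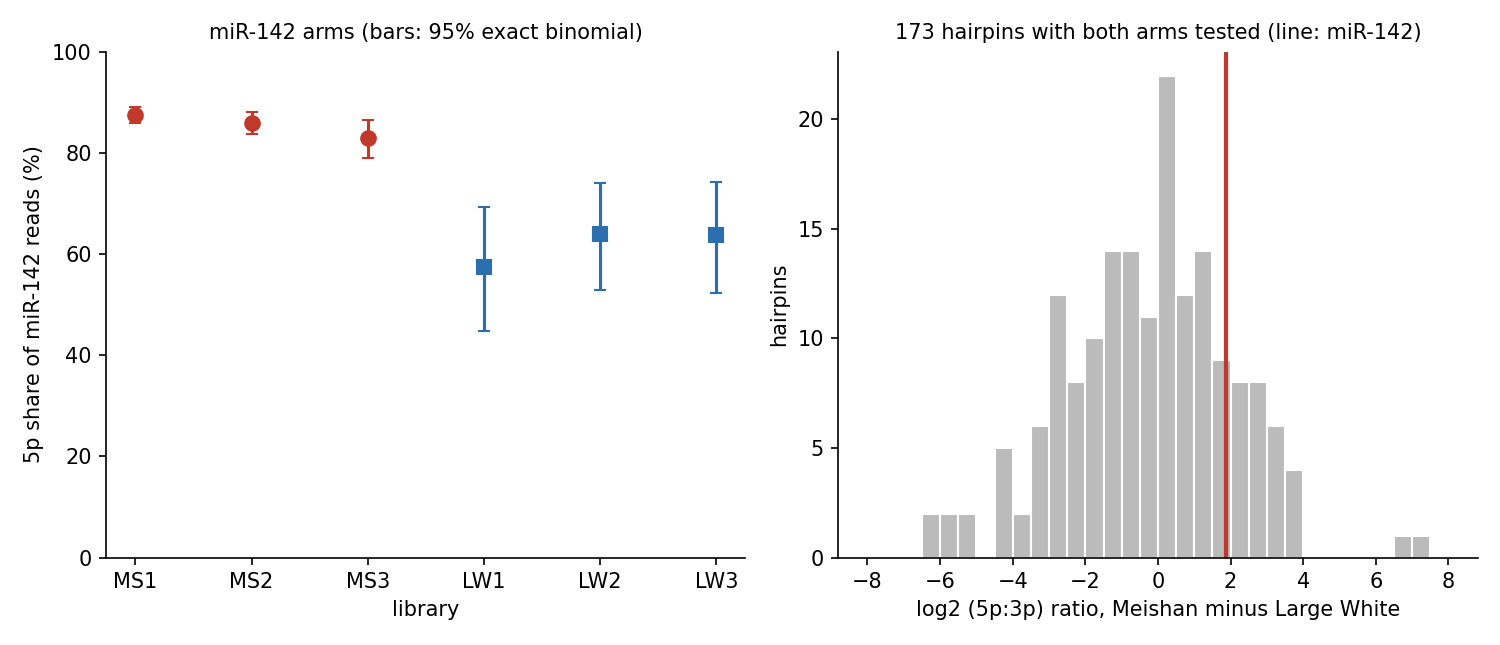
Left, share of miR-142 reads from the 5p arm (%) in each library, Meishan (circles) before Large White (squares), with 95% exact binomial intervals. Right, histogram of the difference in log2 5p:3p ratio, Meishan minus Large White, over 173 hairpins, with a line at miR-142, which lies well inside the range of the others. Some of the others had an arm tested through its MS level alone, which favoured a large difference.

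MiR-223 is the granulocyte and monocyte member of the group, and PN-32-3p is its match here. It had 94.3, 60.6 and 172.6 normalized reads in MS replicates 1 to 3, against 10.02, 6.51 and 6.39 in LW replicates 1 to 3. The breeds were far apart, and the LW values rested on 8, 8 and 7 reads. The means were 109 ± 57.5 in MS and 7.64 ± 2.06 in LW (SD, n = 3 each). The log2 fold change was 3.57 ± 0.45 (SE, adjusted p = 3.6e-05, limma), the 31st highest of the 548, and PN-32-3p passed the filter on low values through MS alone. Its other arm, PN-32-5p, had 2.88, 1.84 and 5.08 normalized reads in MS libraries and 0, 0 and 0.913 in LW libraries, which is at most 4 reads in any library and too few to compare.

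The ratio of miR-142-5p to PN-32-3p was 12.1, 13.5 and 3.33 in MS libraries and 4.88, 6.88 and 7.29 in LW libraries, so the breeds overlapped. The ratio of miR-142-3p to PN-32-3p was 1.73, 2.21 and 0.686 in MS libraries and 3.63, 3.88 and 4.14 in LW libraries, lower in every MS animal. The breeds were thus separated in the ratio with the 3p arm and not in that with the 5p arm. The LW ratios rested on 8, 8 and 7 reads of PN-32-3p.

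MiR-155-5p, the strand induced in activated lymphocytes and macrophages, had 333, 389 and 428 normalized reads in MS replicates 1 to 3, against 141.6, 333 and 245 in LW replicates 1 to 3. The lowest MS animal and the highest LW animal were at nearly the same level. The means were 384 ± 47.7 in MS and 240 ± 95.7 in LW (SD, n = 3 each). The log2 fold change of 0.75 ± 0.35 (SE, 95% interval -0.01 to 1.52) had an adjusted p of 0.0792 (limma) and was not called. The value moved with the LW animals: without LW replicate 2, the highest, it was 1.03 with an adjusted p of 0.0342 (limma), and without LW replicate 1, the lowest, it was 0.42 with an adjusted p of 0.307 (limma). The passenger strand, miR-155-3p, had 2 reads in MS replicate 1 and 0 in the other 5 libraries, where 3 reads, the one-sided 95% limit that a count of 0 allows, are worth 2.44 to 5.08 normalized reads.

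The miR-146 strands share a seed, and only miR-146b-5p passed the test under the authors' scaling, whereas both did with equal library sums and neither with a GC correction, as given below. It had 532, 483 and 331 normalized reads in MS replicates 1 to 3, against 185, 262 and 197 in LW replicates 1 to 3, without overlap. The means were 448 ± 105 in MS and 215 ± 41.2 in LW (SD, n = 3 each), and the log2 fold change was 1.05 ± 0.31 (SE, adjusted p = 0.0114, limma). This call rested on MS replicate 1, without which the log2 fold change was 0.91 with an adjusted p of 0.0516 (limma).

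MiR-146a-5p had 488, 222 and 307 normalized reads in MS replicates 1 to 3, against 224, 273 and 238 in LW replicates 1 to 3. MS replicate 2 was below all LW animals, and the other MS animals were above them. The means were 339 ± 136 in MS and 245 ± 25.3 in LW (SD, n = 3 each). The log2 fold change was 0.39 ± 0.34 (SE, 95% interval -0.34 to 1.13, adjusted p = 0.32, limma). The spread among MS animals was larger than the difference of the means. Without MS replicate 1 the log2 fold change was 0.09, and without MS replicate 2 it was 0.66, neither of them called.

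The ratio of miR-146b-5p to miR-146a-5p was 1.09, 2.18 and 1.08 in MS libraries and 0.827, 0.958 and 0.828 in LW libraries. MiR-146b-5p was thus the more abundant of the pair in every MS animal and miR-146a-5p in every LW animal. The mean ratio was 1.45 ± 0.63 in MS and 0.871 ± 0.0757 in LW (SD, n = 3 each), a difference of 0.65 on the log2 scale, with p = 0.10 in the two-sided exact permutation test and adjusted p = 0.10. Without MS replicate 2, in which the ratio was highest, the difference was 0.32. The strands are alike over most of their length, and in MS replicates 2 and 3 both values lay 0.50 read away from a whole number of reads, whereas they were whole in the other libraries. How reads were split between miR-146a-5p and miR-146b-5p was not tested, and the share of each is uncertain. The 3p strand of miR-146b had at most 2 reads in any library. No listed miRNA had a 3p strand of miR-146a as its first name.

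MiR-150-2-5p, the lymphocyte miRNA of the group, was the least abundant member tested in MS. It had 63.3, 40.4 and 113.4 normalized reads in MS replicates 1 to 3, against 50.1, 41.5 and 57.5 in LW replicates 1 to 3. The breeds overlapped, with the lowest value of all in MS replicate 2 and the highest in MS replicate 3. The means were 72.4 ± 37.3 in MS and 49.7 ± 8.04 in LW (SD, n = 3 each), and the log2 fold change of 0.42 ± 0.41 (SE, 95% interval -0.48 to 1.32) had an adjusted p of 0.382 (limma). It was 0.04 without MS replicate 3 and 0.77 without MS replicate 2, again with no call. The ratio of miR-142-5p to miR-150-2-5p was 17.97, 20.3 and 5.07 in MS libraries and 0.975, 1.08 and 0.810 in LW libraries, so the strands were about equal in LW muscle only.

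Candidate miRNAs with the sequence of a member plus 1 base at the 3′ end were found by matching sequences, outside the naming rule. The added base is in capitals.
PC-16-5p: tgagaactgaattccatgggttA
PC-17-5p: tctcccaacccttgtaccagtgT
PC-16-5p, the longer form of miR-146a-5p, had 15.8, 8.72 and 16.1 normalized reads in MS libraries and 11.9, 22.8 and 23.3 in LW libraries, with a log2 fold change of -0.47 and an adjusted p of 0.375 (limma). PC-17-5p, the longer form of miR-150-2-5p, had 2.88, 2.75 and 8.46 normalized reads in MS libraries and 7.52, 9.76 and 16.4 in LW libraries, with a log2 fold change of -1.18 and an adjusted p of 0.0802 (limma). Neither was called. Relative to the member it extends, PC-16-5p was 0.0324 to 0.0523 in MS and 0.0531 to 0.0977 in LW, and PC-17-5p was 0.0455 to 0.0746 in MS and 0.15 to 0.286 in LW. Both ratios were lower in every MS library, a description that rests on few reads and was chosen after the values were seen. PC-17-5p averaged 4.70 normalized reads in MS and 11.2 in LW. It was thus tested through its LW level alone, which favoured a negative log2 fold change.

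The arms of miR-1468 match the naming rule by digits only, belong to a different family and were not called. MiR-1468-5p had 268, 231 and 337 normalized reads in MS libraries and 322, 377 and 435 in LW libraries, with a log2 fold change of -0.45 ± 0.30 (SE, adjusted p = 0.206, limma). MiR-1468-3p had at most 2.16 normalized reads in any library.

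Summed over the 8 family members, the normalized reads were 2719, 2090 and 1876 in MS libraries and 687, 980 and 811 in LW libraries. They made up 0.109 ± 0.00545% of all normalized reads in MS and 0.0300 ± 0.00453% in LW (SD, n = 3 each), so the group was a small part of the muscle miRNAs in both breeds. Within the group the order of members differed. MiR-142-5p held 37.2 ± 5.85% of the members' reads in MS and 5.81 ± 1.28% in LW. MiR-146a-5p held 15.0 ± 3.86% in MS and 30.0 ± 2.44% in LW, and miR-155-5p held 17.9 ± 5.32% in MS and 28.2 ± 6.87% in LW (SD, n = 3 each). The most abundant member was miR-142-5p in all MS libraries, miR-146a-5p in LW replicate 1 and miR-155-5p in LW replicates 2 and 3.

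The animals of a breed did not rank alike for all members. In MS, replicate 1 was the highest for both miR-142 arms, miR-146a-5p and miR-146b-5p, whereas replicate 3 was the highest for miR-155-5p, miR-150-2-5p and PN-32-3p. MiR-142-5p deviated from its MS mean by 0.48, 0.01 and -0.50 on the log2 scale in replicates 1 to 3, and PN-32-3p by -0.08, -0.71 and 0.79. Among LW animals, replicate 1 was the lowest for miR-155-5p, at -0.67, and the highest for PN-32-3p, at 0.38. No MS animal was therefore high or low for the whole group.

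**Figure D3:**
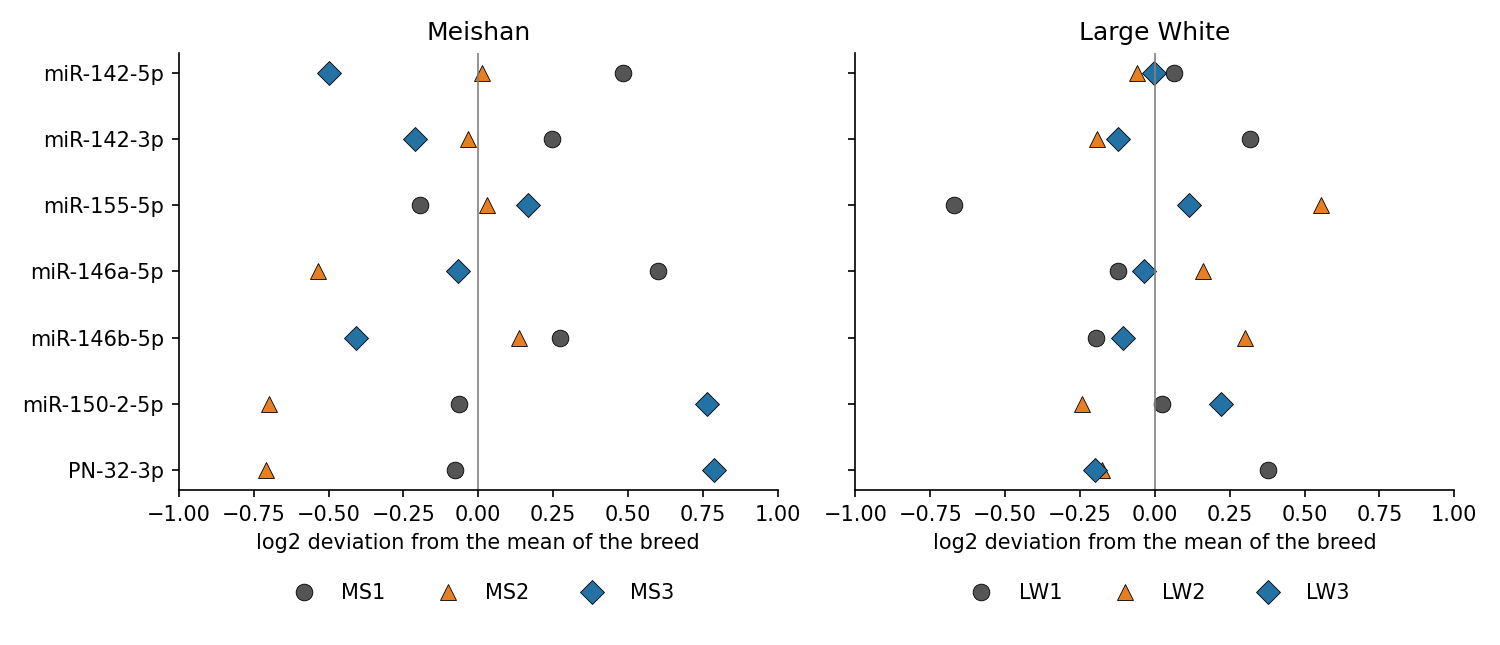
Deviation of each animal from the mean of its breed (log2 of normalized reads + 1) for the 6 members tested and PN-32-3p, Meishan at left and Large White at right. The symbols change order from row to row: in Meishan the replicate 3 diamond is leftmost for miR-142-5p (-0.50) and rightmost for PN-32-3p (0.79).

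The breed differences of all miRNAs moved with GC content, and the members were read beside miRNAs of like composition. Within 5 percentage points of the GC content of miR-142-5p lay 92 other tested miRNAs, of which 71.7% were called higher in MS, with a median log2 fold change of 1.88. Among these 92, 8 had a higher log2 fold change than miR-142-5p. For miR-142-3p the median of its 102 neighbours in GC content was 1.81, and 39 of them exceeded it. MiR-155-5p lay under the median of its 92 neighbours, 1.94, and 66 exceeded it. For miR-150-2-5p, the member richest in GC, the 164 neighbours had a median of -0.60, and 43 exceeded it. PN-32-3p was exceeded by 13 of 175 neighbours, whose median was 0.75, but it was tested through its MS level alone, which favoured a high place.

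**Figure D4:**
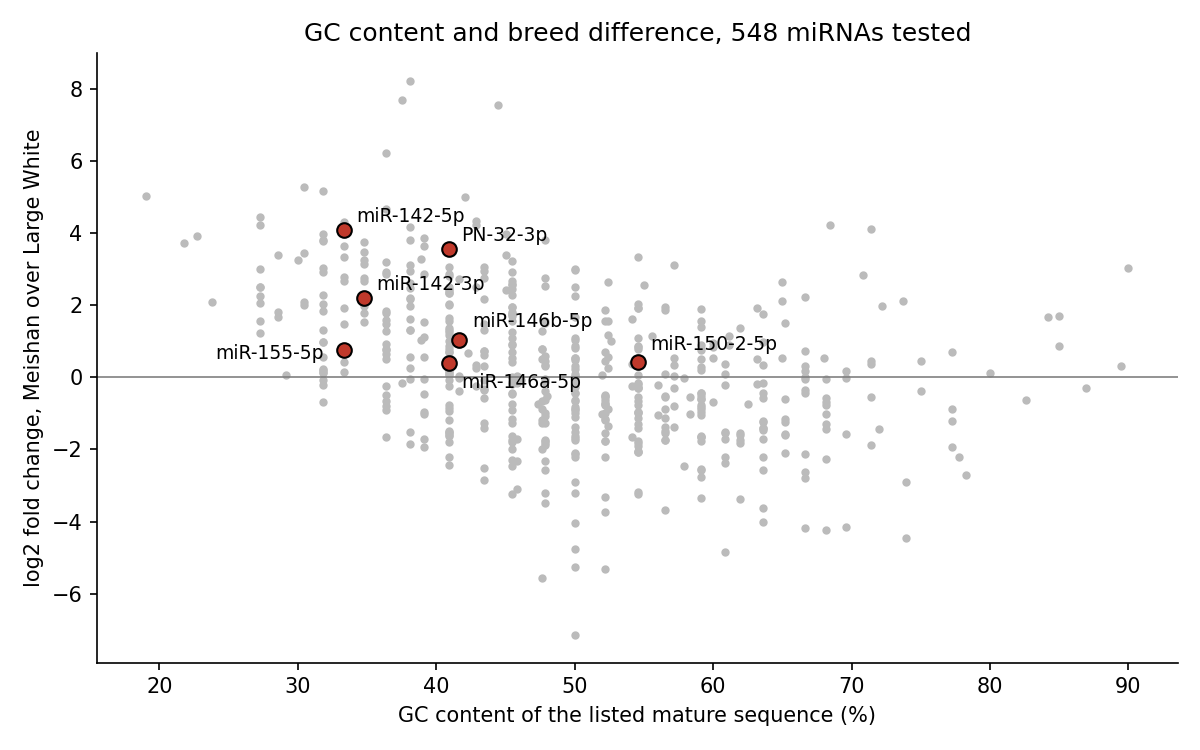
Log2 fold change (Meishan over Large White) against the GC content (%) of the listed mature sequence for the 548 miRNAs tested (grey), with the 6 members and PN-32-3p in red. Grey points lie mostly above 0 at low GC content, and miR-142-5p (4.09 at 33.3%) and PN-32-3p (3.57 at 40.9%) lie near the top of theirs. PN-32-3p was tested through its MS level alone.

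A loess correction of each library on GC content changed several of the calls. MiR-142-5p stayed higher in MS, with a log2 fold change of 2.09 ± 0.26 (SE, adjusted p = 0.00020, limma), as did PN-32-3p at 2.62 ± 0.43 (SE, adjusted p = 0.00091, limma). For PN-32-3p a call in that direction was favoured, because it was tested through its MS level alone. The calls of miR-142-3p (0.39, adjusted p = 0.262) and miR-146b-5p (0.24, adjusted p = 0.469) were lost. MiR-155-5p turned lower in MS (-1.25, adjusted p = 0.0149), miR-146a-5p changed sign without a call (-0.55, adjusted p = 0.136), and miR-150-2-5p became higher in MS (1.05, adjusted p = 0.0445). In this fit 2 of the 6 members were called higher and 1 lower, beside 30.8% higher and 29% lower over all miRNAs tested. Whether the GC trend arose in the libraries or in the muscle was not tested.

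Scaling mattered too, because the normalized reads summed to less in MS. With libraries scaled to equal sums, the median over all miRNAs tested became 0.54 on the log2 scale, a shift of 0.43, and 5 of the 6 members were called higher and 0 lower by limma, beside 42.3% higher and 21.5% lower over all miRNAs tested. MiR-155-5p (1.19, adjusted p = 0.0157) and miR-146a-5p (0.83, adjusted p = 0.0391) were added to the calls, and miR-150-2-5p (0.85, adjusted p = 0.116) was not called. The direction of miR-142-5p held under the authors' scaling, equal sums and the GC correction, whereas those of miR-155-5p and miR-146a-5p flipped under the GC correction.

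**Figure D5:**
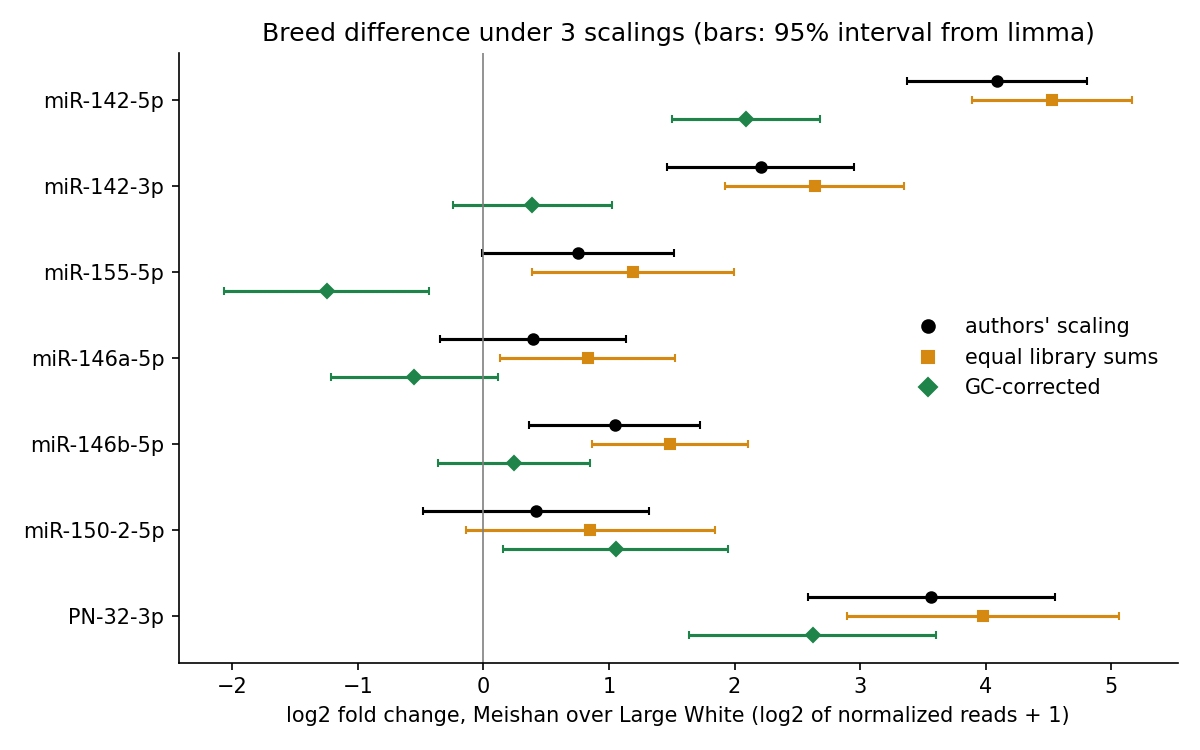
Log2 fold change, Meishan over Large White, with 95% limma intervals for the 6 members tested and PN-32-3p under the authors' scaling (circles), equal library sums (squares) and the GC correction (diamonds). The intervals of miR-142-5p and PN-32-3p stay right of 0 under each, and that of miR-155-5p is left of 0 only under the GC correction. PN-32-3p was tested through its MS level alone, which favoured this side.

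Outside the members, miRNAs were ranked by how near their profile over the 6 libraries lay to that of miR-142-5p. The measure was the root mean square difference of centred log2 values, in which the breed difference itself weighs heavily. Nearest were miR-1-3p, a skeletal and cardiac muscle miRNA (0.15), the conserved PN-88-5p (0.22) and miR-136-5p of the imprinted DLK1-DIO3 domain (0.23). Next came miR-16-1-3p (0.29) and miR-98-3p (0.32). These 5 had log2 fold changes of 3.66 to 4.17 and a GC content of 22.7% to 38.1%. Their nearness was thus largely a like breed difference, and a shared cell type was not tested. PN-88-5p and miR-98-3p averaged 4.10 and 4.81 normalized reads in LW and were among the miRNAs compared only because of their MS level. MiR-1-3p averaged 6244 ± 1876 normalized reads in MS and 398 ± 35.5 in LW (SD, n = 3 each), a log2 fold change of 3.92. Of 547 other miRNAs tested, PN-32-3p was the 39th nearest (0.71), miR-142-3p the 78th (0.96), miR-146b-5p the 166th (1.54), miR-155-5p the 205th (1.76), miR-146a-5p the 231st (1.88) and miR-150-2-5p the 251st (1.95).

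MiRNAs of other cell types that a muscle sample can hold were read beside the same background, 34.1% called higher and 28.1% lower over all miRNAs tested. Of 6 listed erythroid arms of miR-144, miR-451 and miR-486, 4 were tested, 3 were called higher and 0 lower in MS, with a median log2 fold change of 2.39, and their summed level was 6107 to 10782 normalized reads in MS libraries and 3510 to 4571 in LW libraries. MiR-451-5p, the red cell miRNA, had a log2 fold change of 2.67 (adjusted p = 8.6e-05, limma), whereas miR-486-2-5p, the most abundant of the list by its mean in both breeds, had 0.34 (adjusted p = 0.336, limma). In the list of muscle miRNAs (miR-1, miR-133a, miR-133b, miR-206) all 8 arms were called higher in MS, with a median of 2.02 and sums of 61667 to 85159 in MS and 17321 to 22462 in LW. For 3 of these arms (miR-133b-5p, miR-206-5p and miR-1-5p) the LW mean was under the filter, so that they were tested through their MS level alone and a call in that direction was favoured. Of the endothelial miR-126 arms, miR-126-5p was called higher (2.61) and miR-126-3p was not called (-0.43), with sums of 10500 to 13989 in MS and 5134 to 8860 in LW. No listed miRNA carried a known porcine name of miR-342, another leukocyte miRNA, so it was not compared. The GC content of miR-451-5p (34.8%) and miR-126-5p (38.1%) lay within the window of miR-142-5p, in which 71.7% were called higher in MS. The part of blood, vessel or muscle content in the differences of miR-142 and PN-32 was not tested.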

How the data were processed

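The authors removed adapters, junk reads and reads outside 18 to 26 nt with ACGT101-miR (version not given in the sources used here), removed matches to Rfam, NCBI and Repbase, and aligned what was left to miRBase and Sscrofa10.2 by BLAST. The values deposited by the authors are a signal, reads normalized by all mappable reads of a library, and the sources do not name the scaling target. A further 4 table lines were left out. Mature sequences came from the deposited table and the hairpin and its positions from the study's hairpin list. Gene neighbours came from RefSeq Sscrofa11.1.

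In each library 93.3% to 95.7% of the values up to 20 reads were whole multiples of 1 read within 0.1 read, and all values were divided by that step to recover reads. MS was set against LW on log2(normalized reads + 1) by limma 3.58.1 (R 4.3.3) with a mean-variance trend. The filter on low values kept 548 miRNAs whose mean reached 10 normalized reads in MS or LW, and p-values were adjusted over them by Benjamini-Hochberg. On the recovered reads edgeR 4.0.16 called 345 miRNAs and DESeq2 1.42.0 called 347, beside 341 by limma. The limma fit was also run on simulated data. Ratios were compared by exact permutation.

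Alternatives were pseudocounts of 0.5 and 10, median-of-ratios, TMM and equal-sum scaling, no filter and a filter at 1000, no trend, a replicate block, a GC correction (loess, span 0.75), both together, each library left out, and both count tools. The members and lists were chosen with earlier results of these data known. MiRNAs named were all family arms, the miR-1468 arms, PN-32, the 5 nearest profiles and up to 2 of each comparison list (erythroid, endothelial, skeletal muscle and miR-342). PC-16-5p, PC-17-5p and PC-392-3p were chosen outside this rule, by sequence. MiR-133b-5p, miR-206-5p and miR-1-5p were also named outside it, because their LW mean was under the filter. Descriptive values came from pandas 2.3.3, numpy 2.4.6 and scipy 1.17.1 under Python 3.11.15. RT-qPCR and histology were not analysed here.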

Additional observations from a re-analysis of the deposited data

How the results depend on the processing

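MiR-142-5p was called higher in MS under all 18 alternatives run for it, with log2 fold changes of 2.09 to 4.53 (3.85 to 4.34 with a library left out) and adjusted p from 1.3e-31 to 0.00023. The count of members called higher was 3, 5 with equal sums, and 2 to 4 with a library left out. Under the GC correction, with and without the replicate block, it was 2, namely miR-142-5p and miR-150-2-5p. The count called lower was 0, with 0 to 0 when a library was left out, 1 under the GC correction and 1 with the replicate block added to it. Reversals occurred under the GC correction, with and without the block, where miR-155-5p was -1.25 and miR-146a-5p -0.55. The cause was not tested. Over all miRNAs 341 were called, 300 to 373 with a library left out, and 122 of 179 with the filter at 1000 normalized reads, where fewer miRNAs were tested and no member remained.

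The replicate block left the count of members called higher at 3 and miR-142-5p at 4.09, and gave 332 calls over all miRNAs. Deviations of equally numbered animals correlated at 0.00469, -0.211 and 0.0965, so the numbers were not taken to pair animals. The log2 difference of the miR-142 arm ratio was 1.74 to 2.02 with a library left out, and that of the miR-146 ratio 0.32 to 0.83. The summed share of the members was 0.0789 percentage points higher in MS (0.0758 to 0.0815 with a library left out), and 0.0876 with known miRNAs as the denominator. The LW values of miR-142-5p, miR-142-3p, miR-150-2-5p and PN-32-3p rested on 7 to 63 reads, and no more than 4 reads stood behind PN-32-5p, miR-155-3p and miR-146b-3p in any library.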
